A study of Drosophila melanogaster with 26 samples.

Results

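The genes that place, bind and remove methyl groups on lysine 36 of histone H3 were followed across the RNA-seq libraries of a male and a female fly cell line after RNAi. These 8 genes were listed by name for their roles, out of the 17489 genes counted. They are the methyltransferases (writers) *Set2*, *NSD* and *ash1*, the binding proteins (readers) *Ndf* and *MRG15*, and the demethylases (erasers) *Kdm2*, *Kdm4A* and *Kdm4B*. All 8 were tested, since each had at least 48 reads on its own strand in every library.

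Methylated H3K36 marks the bodies of transcribed genes. Set2 travels with elongating RNA polymerase II and places the trimethyl form, while NSD and Ash1 place the dimethyl form. PWWP and chromodomain proteins bind the mark, and JASPer, the partner of the H3S10 kinase JIL-1, is such a PWWP protein. The comparisons below ask whether the genes of this methylation cycle changed in transcript level upon RNAi against either partner. They also ask whether these genes differed between a male and a female line. In the study's western blots of both lines, JIL-1 protein fell as far with *jasper* RNAi as with *jil-1* RNAi.

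The cells depleted of a partner were male S2 cells (S2-DRSC) with *jasper* RNAi (n = 4) or *jil-1* RNAi (n = 5) and female Kc cells (Kc167) with *jasper* RNAi (n = 4) or *jil-1* RNAi (n = 4). Control RNAi was given to S2 cells (n = 5) and to Kc cells (n = 4). Every group, the controls included, was exposed to double-stranded RNA at 10 µg/mL, was treated again on day 3 and grew for 4 more days. Both lines are long-established embryonic cultures, and each group therefore stands for 1 line, not for an organism. The labels number the libraries, with numbers 4, 5, 8, 9 and 11 in S2 cells and 1 to 4 in Kc cells, and assign them to batches. They do not say that libraries came from separate cultures, so p-values measure the spread between these libraries, which may be technical.

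Reads on the gene strand numbered between 4038886 and 17648358 per S2 library and between 2513223 and 17419281 per Kc library. Over 44 pairs of libraries of the same group, none agreed within sampling noise. The male marker lncRNA *roX2* lay between 518 and 953 CPM in S2 libraries and between 0.61 and 21.2 CPM in Kc libraries. The other male marker, *roX1*, did not separate the lines, at 0.567 to 26.7 CPM in S2 and 0.908 to 33.3 CPM in Kc. The hemocyte factor *srp* lay between 152 and 224 CPM in S2 and between 150.0 and 254 CPM in Kc. CPM are counts per 1000000 reads on genes, after TMM scaling over all 26 libraries. Own-strand reads did not measure depletion of the targets. *Jasper* was at 1960 and 1032 CPM in Kc *jasper* RNAi libraries 2 and 4, against 83.6 to 93.9 CPM in Kc control libraries, and JIL-1 was at 88.4 to 672 CPM in S2 *jil-1* RNAi libraries, against 63.6 to 94.5 CPM in S2 control libraries. Reads opposite to *Jasper* were at 131 CPM or more in S2 and 18.5 CPM or more in Kc *jasper* RNAi libraries, against at most 10.4 and 3.99 CPM in all others. Those opposite to JIL-1 were at 109 CPM or more in S2 and 59.2 CPM or more in Kc *jil-1* RNAi libraries, against at most 13.1 and 6.62 CPM elsewhere. Kc *jasper* RNAi libraries 2 and 4 stood apart, with 18.5 and 31.5 CPM opposite to *Jasper*, while libraries 1 and 3 had 3606 and 373 CPM. S2 *jasper* RNAi libraries 5 and 9 likewise had high own-strand values, at 1098 and 1634 CPM, against 59.2 and 107 CPM in libraries 4 and 8. The study used several double-stranded RNAs, 2 for each target and more than one as a control, and the labels do not tell which of them a library received.

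The writers, readers and erasers differed widely in level. Per kb of exon that no same-strand gene shares, *Ndf* was highest in both lines, with 126 ± 2.77 CPM per kb in S2 control cells (SD, n = 5) and 144 ± 7.82 in Kc control cells (SD, n = 4). *NSD* came next, with 67.5 ± 3.05 CPM per kb in S2 and 34.7 ± 2.93 in Kc control cells. Thereafter came *MRG15* and *Kdm2*. *MRG15* had 34.6 ± 2.85 CPM per kb in S2 and 28.4 ± 1.97 in Kc control cells, and *Kdm2* had 30.3 ± 1.49 in S2 and 28.1 ± 1.94 in Kc control cells. The libraries of these neighbours overlapped in both lines, so their order was not resolved. *Set2*, *Kdm4B*, *Kdm4A* and *ash1* formed the lowest group, between 9.48 and 14.8 CPM per kb on average, with overlapping neighbours throughout. The place of *Kdm4B* within this group assumes that its reads come only from exon bases that no same-strand gene shares. The writer of the trimethyl mark was among the least abundant transcripts of the cycle, and its range lay below those of *NSD* and of both readers in each control group. In bulk RNA, fewer cells of a type and less RNA per cell cannot be told apart.

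**Figure D1:**
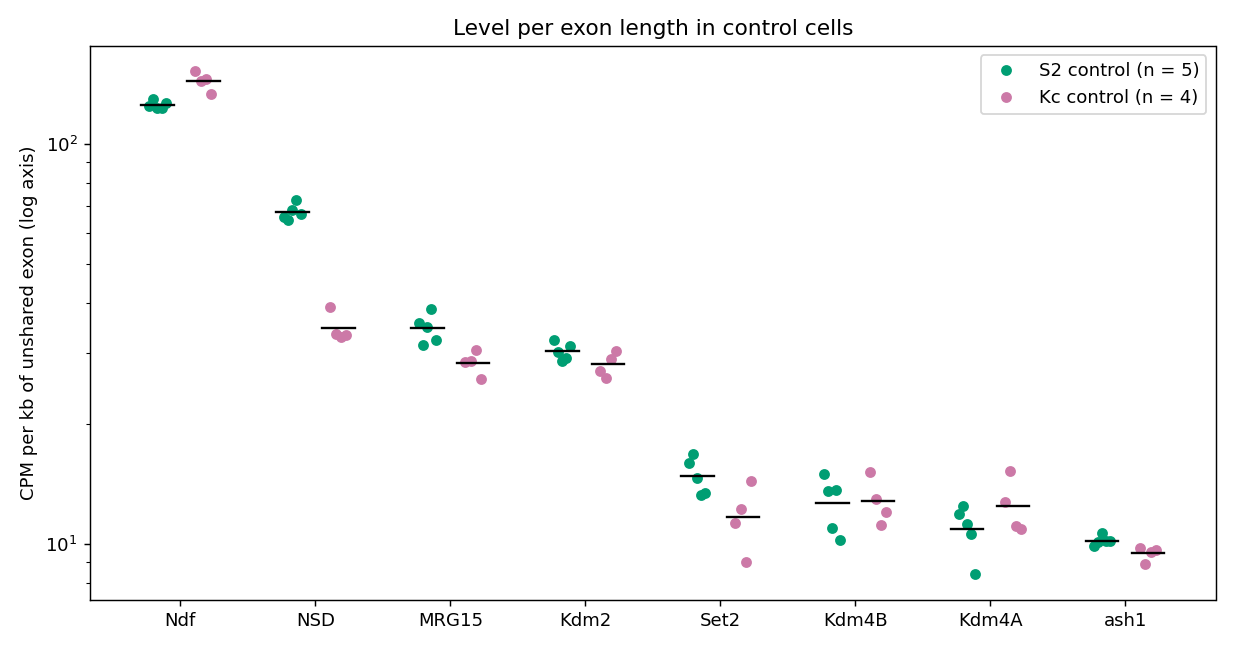
Level of each gene in CPM per kb of exon not shared with a same-strand gene (log axis), in S2 control (5 libraries, left) and Kc control cells (4 libraries, right); points are libraries and bars are means. *Ndf* and *NSD* stand above the other genes, and *NSD* shows the widest gap between the lines, with means of 67.5 CPM per kb in S2 and 34.7 in Kc control cells.

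Spread between libraries differed among the genes. The coefficient of variation over S2 control libraries was 2.20% for *Ndf*, 2.79% for *ash1*, 4.52% for *NSD* and 4.91% for *Kdm2*, while it was 14.4% for *Kdm4A* and 15.8% for *Kdm4B*. *Kdm4B* had the fewest reads, between 48 and 240 per library. In the annotation used here for exon lengths, 5718 of its 6742 exon bases lie on the same strand as exons of *CG17724* or *seq*. If these exons were also shared in the annotation used for counting, its counts come from the remaining 1024 bases. The release used for counting was not known and this was not tested, so its counts and its level per kb are uncertain. In the same annotation used for exon lengths, *MRG15* shares 129 bases with l(3)neo43, and the other 6 genes share none on their own strand.

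The first comparison asked how S2 cells with *jasper* RNAi differed from S2 control cells. One writer rose, one eraser fell and the other 6 genes did not pass the test. This made 2 of 8 genes past the threshold, an adjusted p below 0.05 by edgeR's quasi-likelihood test over all genes. Among all 8465 genes tested the share was 20.3%, with 8.45% higher and 11.9% lower, so that the count was close to the background. The median log2 fold-change was -0.0016 over the 8 genes and 0.011 over all genes.

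The gene that rose was *ash1* (FBgn0005386, 3L:19590773-19598755 in the release 6 genome, minus strand), a trithorax-group methyltransferase. It had 92.5, 88.0, 82.4 and 82.7 CPM in S2 libraries 4, 5, 8 and 9 with *jasper* RNAi, against 75.0, 76.8, 81.0, 77.4 and 77.6 CPM in control libraries 4, 5, 8, 9 and 11. Every *jasper* RNAi library lay above every control library, although libraries 8 and 9 exceeded the highest control by little. Among all genes 5.75% had their *jasper* RNAi libraries wholly above the controls. With a log2 fold-change of 0.15 (SE, the standard error, 0.047) and an adjusted p of 0.034 (edgeR), this was a 1.11-fold higher level with a 95% interval of 1.04 to 1.19. The difference was larger in batch 1, at 0.25, than in batch 2, at 0.060, with 2 libraries per group in each. The call depended on single libraries. It was lost upon leaving out control library 4, 5 or 9 (adjusted p = 0.11, 0.068 and 0.064, edgeR) or *jasper* RNAi library 4, 5 or 8 (adjusted p = 0.11, 0.087 and 0.053), and without 1 library the log2 fold-change ranged between 0.12 and 0.19. DESeq2 gave 0.14 with an adjusted p of 0.077. With edgeR the call was also lost with scaling from autosomal genes, no filter on low counts, no batch term or only the 2 groups in the fit (adjusted p = 0.073, 0.13, 0.081 and 0.059).

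The gene that fell was *Kdm2* (FBgn0037659, 3R:9052495-9063245, plus strand), which encodes a JmjC demethylase with an F-box. *Kdm2* had 153, 162, 144 and 141 CPM in *jasper* RNAi libraries 4, 5, 8 and 9, against 177, 166, 158, 159.8 and 171 CPM in control libraries 4, 5, 8, 9 and 11. Library 5 with *jasper* RNAi lay within the control range and the other 3 lay below it. In each of the 4 same-numbered pairs the *jasper* RNAi library was lower, by 0.039 to 0.22 on the log2 scale. The numbers were not shown to pair libraries beyond their batch. Here and below, the share of all genes lower in every pair was not counted. *Kdm2* fell by 0.14 on the log2 scale (SE 0.045, adjusted p = 0.039, edgeR), to 0.909 times the control level with a 95% interval of 0.851 to 0.970. Batches 1 and 2 gave -0.13 and -0.15. Here too the call was lost without control library 4, 8 or 9 (adjusted p = 0.091, 0.097 and 0.074, edgeR) and without any one of *jasper* RNAi libraries 4, 5, 8 and 9 (adjusted p = 0.11, 0.054, 0.060 and 0.073), with log2 fold-changes between -0.16 and -0.12. It was also lost with no filter on low counts (adjusted p = 0.10) and with no batch term (adjusted p = 0.19, edgeR).

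The writers *Set2* and *NSD* and the readers *Ndf* and *MRG15* had small estimates in this comparison. *Set2* (FBgn0030486, X:13413242-13421024, plus strand) is the only one of the 8 genes on the X chromosome. It had 116, 128, 111 and 109 CPM in *jasper* RNAi libraries 4, 5, 8 and 9, against 121, 127, 111, 100.4 and 102 CPM in control libraries 4, 5, 8, 9 and 11. Both groups spanned about the same values and overlapped throughout. Its log2 fold-change was 0.0013 with a 95% interval of -0.14 to 0.15. The median over 1432 X-linked genes in the same fit was -0.091, and 21.7% of them fell, so that the interval of *Set2* held both no change and the X median. *NSD*, *Ndf* and *MRG15* had intervals of -0.10 to 0.086, -0.028 to 0.14 and -0.13 to 0.12. *Kdm4A* and *Kdm4B* had wider intervals, of -0.081 to 0.29 and -0.32 to 0.18, and changes within these bounds were not excluded.

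**Figure D2:**
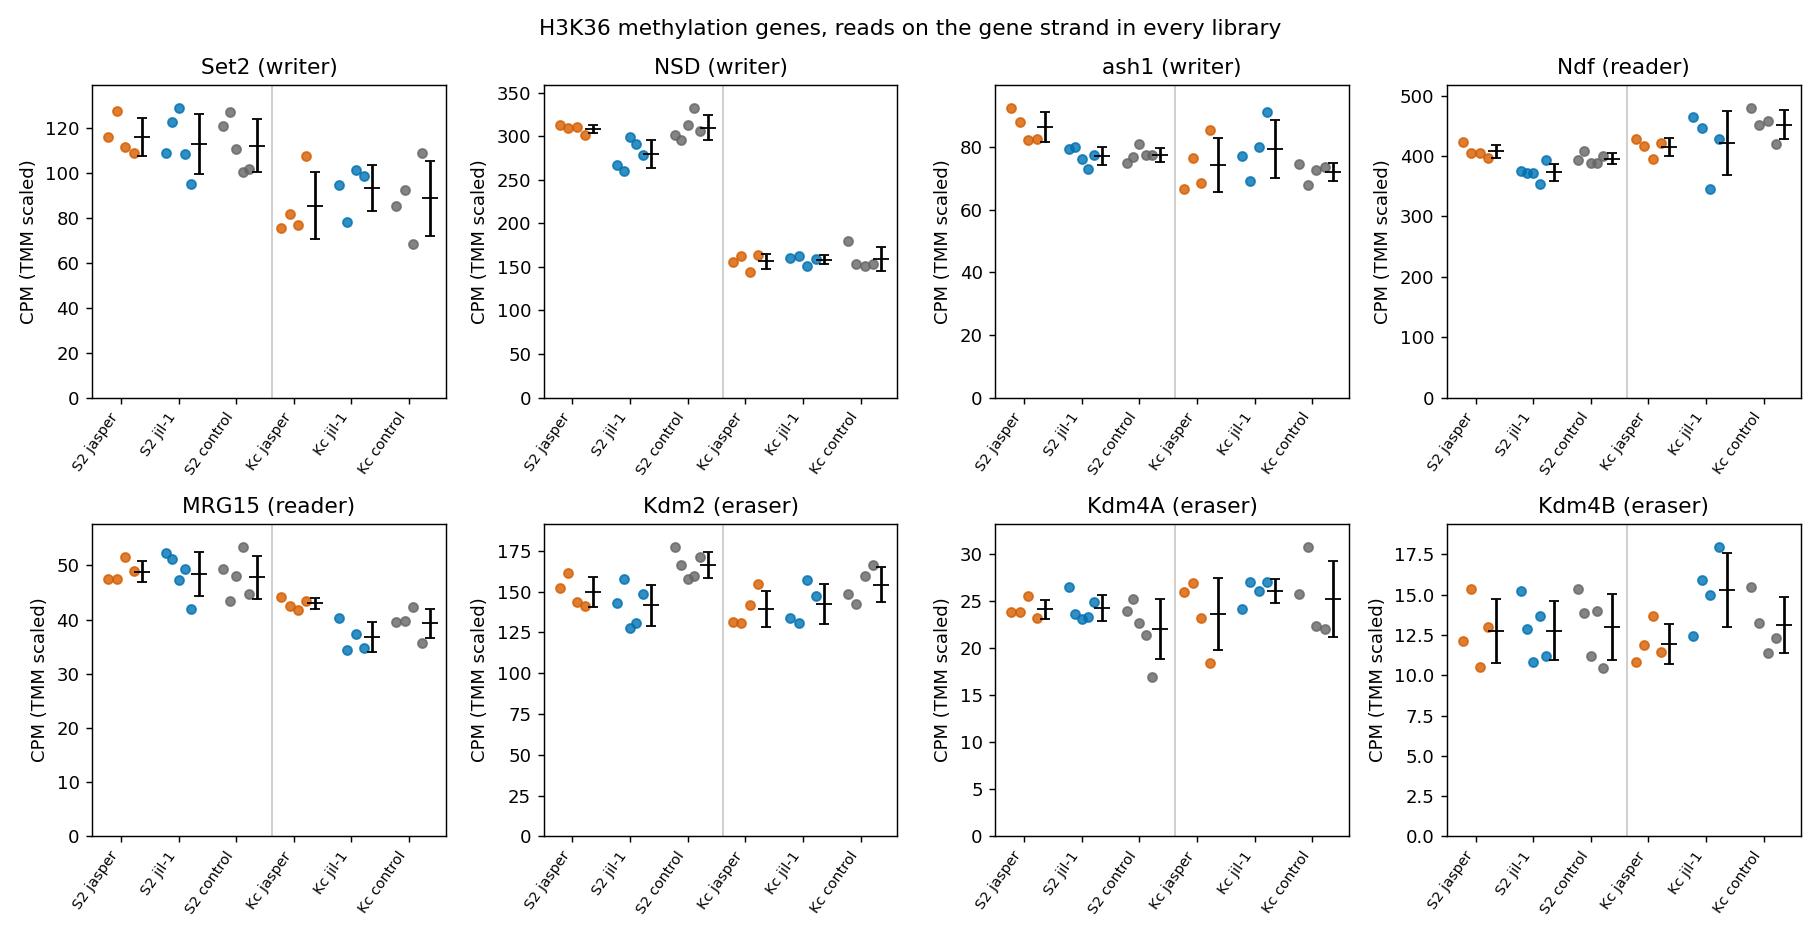
CPM (TMM scaled) of each gene in every library, by line and RNAi group, with the mean and SD drawn to the right of each group (n = 4 or 5). In S2 cells, *ash1* with *jasper* RNAi lies above the controls, *NSD* is lower with *jil-1* RNAi, and *Kdm2* is lower with either RNAi; the Kc groups overlap for these 3 genes.

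In S2 cells with *jil-1* RNAi against S2 control cells, one writer and the same eraser fell. Again 2 of 8 genes passed the test, beside 21.4% of all 8465 genes (9.12% higher and 12.3% lower), so that this count too was close to the background. The median log2 fold-change was -0.0062 over the 8 genes and 0.0034 over all genes. Both RNAi groups were set against the same control libraries, so that the calls of *Kdm2* in both comparisons are not independent of each other. Of 4 hemocyte markers, *NimC1* was lower in every *jil-1* RNAi library, at 25.2 to 33.8 CPM, against 52.2 to 60.5 CPM in S2 control libraries, and the other 3 overlapped. The 4 summed to between 3956 and 5933 CPM with *jil-1* RNAi and between 1622 and 5197 CPM in control libraries, and none was at 0. With *jasper* RNAi all 4 overlapped the controls, with a sum of 4755 to 6088 CPM. The germline marker *bam* had 1.46, 0.787, 3.26, 2.66 and 1.02 CPM in *jil-1* RNAi libraries 4, 5, 8, 9 and 11, against 0.220, 0.925, 0.317, 0.475 and 0 CPM in control libraries of the same numbers. All but library 5 with *jil-1* RNAi lay above every control, and *elav* and *Mef2* overlapped. The 3 markers of neurons, germline and muscle summed to 70.3 to 97.4 CPM with *jil-1* RNAi and 71.1 to 98.1 CPM in control libraries. The part of these markers in the calls was not tested.

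*Kdm2* had the largest change of the 8 genes upon *jil-1* RNAi. It had 143, 158, 128, 131 and 149 CPM in *jil-1* RNAi libraries 4, 5, 8, 9 and 11, against 177, 166, 158, 159.8 and 171 CPM in control libraries of the same numbers. All but library 5 of the *jil-1* RNAi group lay below every control library, and library 5 just overlapped the lowest control. Each of the 5 same-numbered pairs was lower with *jil-1* RNAi, by between 0.073 and 0.31 on the log2 scale. It fell by 0.24 on the log2 scale (SE 0.041, adjusted p = 0.00062, edgeR), to 0.845 times the control level with a 95% interval of 0.795 to 0.898. Within batches 1, 2 and 3 it was -0.19, -0.30 and -0.20, where batch 3 had 1 library per group. The call was kept in all 14 fits that left out 1 library, with log2 fold-changes between -0.27 and -0.22, and in all 10 other settings tried, between -0.26 and -0.23.

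*NSD* (FBgn0039559, 3R:27932982-27937853, minus strand), the sole fly member of the NSD methyltransferase family, fell less. It had 267, 260.2, 299, 291 and 278 CPM in *jil-1* RNAi libraries 4, 5, 8, 9 and 11, against 301, 296, 313, 332 and 306 CPM in control libraries of the same numbers. Library 8 with *jil-1* RNAi exceeded the lowest control, control library 5, and the other 4 lay below all controls. The fall was -0.15 on the log2 scale (SE 0.041, adjusted p = 0.016, edgeR), or 0.901 times the control level with a 95% interval of 0.848 to 0.957. All 5 same-numbered pairs were lower, and batches 1, 2 and 3 gave -0.18, -0.13 and -0.14. Without control library 9, the highest control, the log2 fold-change was -0.13 and the adjusted p 0.054 (edgeR), and the call was kept without any other library. It was also lost with no filter on low counts (adjusted p = 0.051) and with no batch term (adjusted p = 0.098, edgeR).

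*Ndf* (FBgn0043456, 2L:10003832-10008889, plus strand), a PWWP protein bound to transcribed genes, had lower values in all 5 pairs without passing the test. It had 375, 373, 372, 353 and 393 CPM with *jil-1* RNAi, against 393, 408, 388, 388 and 400.1 CPM in control libraries 4, 5, 8, 9 and 11. Only library 11 with *jil-1* RNAi reached into the control range. Its estimate was -0.087 (SE 0.036, adjusted p = 0.098, edgeR). DESeq2 placed it past the threshold, at -0.089 with an adjusted p of 0.047, and so did edgeR with scaling from autosomal genes, at -0.10 with an adjusted p of 0.049. The call of this gene thus depended on the tool and, within edgeR, on the scaling.

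The X-linked *Set2* again had an estimate near 0. Upon *jil-1* RNAi its log2 fold-change was 0.0046 with a 95% interval of -0.13 to 0.14, while the median over X-linked genes was -0.082 and 20.8% of them fell. Here too the interval held the X median. Its libraries scattered by batch, at -0.10, 0.17 and -0.10 in batches 1, 2 and 3. The intervals of *ash1*, *MRG15*, *Kdm4A* and *Kdm4B* were -0.11 to 0.078, -0.11 to 0.13, -0.030 to 0.32 and -0.23 to 0.23. For *Kdm4A* (FBgn0033233, 2R:7922775-7924988, minus strand), which removes methyl groups from H3K36, batch 3 alone gave 0.55, where control library 11 was the lowest of all 26 libraries for this gene.

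**Figure D3:**
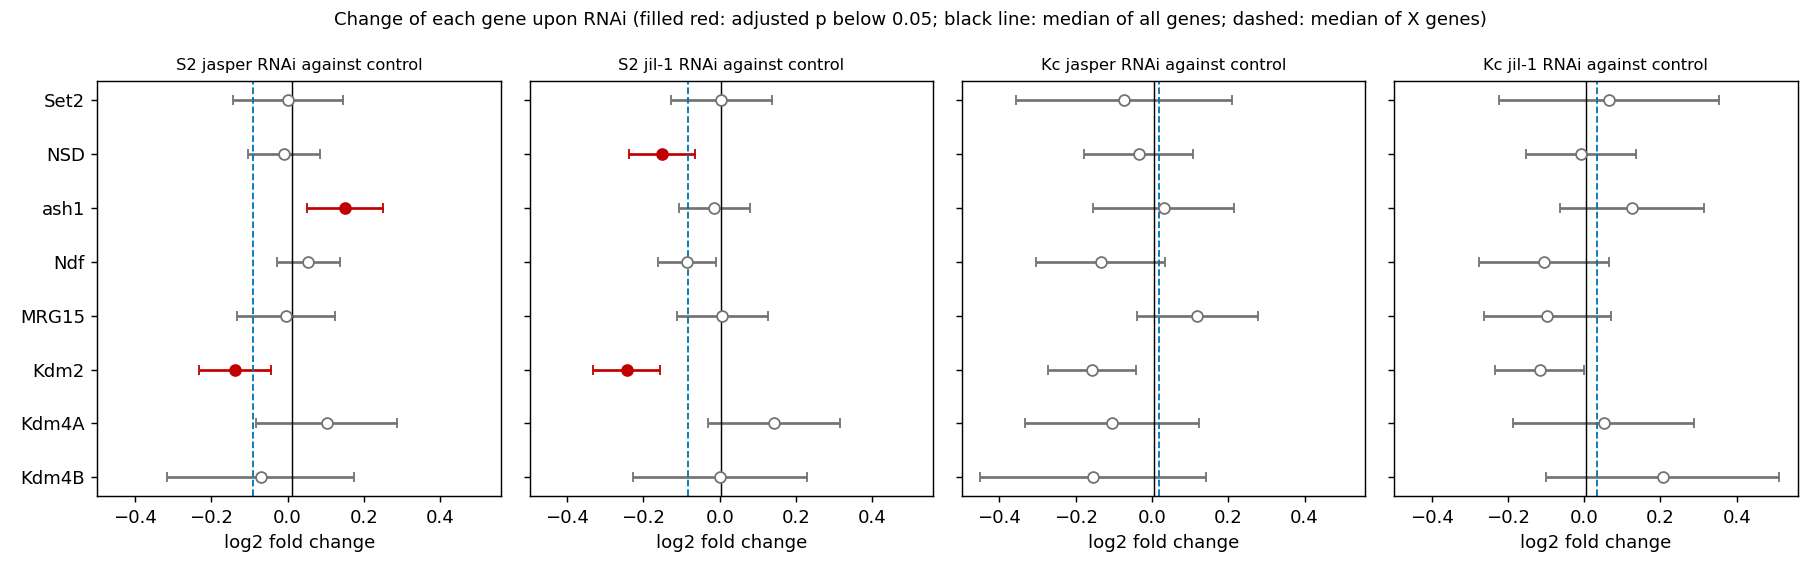
log2 fold-change of each gene with its 95% interval in the 4 comparisons of RNAi with control cells (edgeR); filled red points have an adjusted p below 0.05, the black line is the median of all genes and the dashed line that of X-linked genes. In S2 cells *ash1* (0.15) and *Kdm2* (-0.14) with *jasper* RNAi and *NSD* (-0.15) and *Kdm2* (-0.24) with *jil-1* RNAi are filled; no point is filled in Kc cells.

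Since an effect in one RNAi group and not in the other is no test of a difference, the S2 groups were compared directly. With *jasper* RNAi, *ash1* and *Ndf* were higher than with *jil-1* RNAi, making 2 of 8 genes past the threshold beside 6.38% of all genes, with 2.8% higher and 3.58% lower. For *ash1* the *jasper* RNAi values given above all lay above the 79.4, 80.0, 76.4, 72.9 and 77.4 CPM of *jil-1* RNAi libraries 4, 5, 8, 9 and 11, and the log2 difference was 0.16 (SE 0.046, adjusted p = 0.045, edgeR). *Ndf* had 424, 405, 405 and 397 CPM in *jasper* RNAi libraries 4, 5, 8 and 9, all above the *jil-1* RNAi libraries, and the log2 difference was 0.14 (SE 0.039, adjusted p = 0.040). For *NSD* the libraries were also apart, at 312, 309, 310.3 and 302 CPM with *jasper* RNAi, although its log2 difference of 0.14 did not pass the test (adjusted p = 0.070). Libraries lay wholly above in this way for 3 of the 8 genes and for 2.22% of all genes. *Kdm2* was lower with *jil-1* RNAi in all 4 pairs, but at 0.11 (adjusted p = 0.19) the direct difference was not past the threshold. The marker *NimC1* was also wholly higher with *jasper* RNAi, at 39.9 CPM or more, against 25.2 to 33.8 CPM with *jil-1* RNAi, while the other 3 hemocyte markers overlapped. The germline marker *bam* was wholly lower with *jasper* RNAi, at 0.252 to 0.709 CPM, against 0.787 to 3.26 CPM with *jil-1* RNAi, and *elav* and *Mef2* overlapped. The part of these markers was not tested.

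Both calls of this direct comparison were at the threshold. DESeq2 also called 2 genes, *Ndf* and *NSD* (adjusted p = 0.035 for *NSD*), and gave *ash1* an adjusted p of 0.076. With the replicate number as a block only *Ndf* passed (0.14, adjusted p = 0.049, edgeR), and *ash1* did not (0.16, adjusted p = 0.058), so that the block left 1 of 8 genes. Leaving out any library other than control library 8 ended the call of *ash1*, and leaving out any other than control libraries 5 and 11 and *jil-1* RNAi library 11 ended that of *Ndf*, with adjusted p up to 0.13 for *ash1* and up to 0.14 for *Ndf* (edgeR). Neither gene passed with scaling from autosomal genes, filterByExpr (a stricter filter on low counts), no filter, no batch term or only the 2 groups in the fit. The sizes without 1 library lay between 0.14 and 0.17 for *ash1* and between 0.13 and 0.15 for *Ndf*.

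In female Kc cells none of the 8 genes passed the test with *jasper* or *jil-1* RNAi. This was 0 of 8 by edgeR, beside 4.56% of 8847 genes called with *jasper* RNAi and 3.53% with *jil-1* RNAi. DESeq2 also called 0. At an unadjusted p below 0.05 edgeR had 1 of 8 in either comparison, which was *Kdm2* both times. The share of all genes at this unadjusted threshold was not counted, and both comparisons use the same control libraries. The spread was larger in Kc cells, with a common coefficient of variation of 12.4% in the fit against 7.43% in S2 cells.

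*Kdm2* had 131, 131, 142 and 154 CPM in Kc *jasper* RNAi libraries 1 to 4, and 134, 131, 157 and 148 CPM in *jil-1* RNAi libraries 1 to 4, against 149, 143, 159 and 167 CPM in control libraries 1 to 4. The groups overlapped, yet each RNAi library was lower than the control library of its number. With *jasper* RNAi the log2 fold-change was -0.16 (95% interval -0.27 to -0.042, adjusted p = 0.11, edgeR), and with *jil-1* RNAi it was -0.12 (95% interval -0.23 to -0.00059, adjusted p = 0.24). Without Kc *jasper* RNAi libraries 2 and 4 the *jasper* estimate was -0.18 (adjusted p = 0.17, edgeR). Across 10 other settings (edgeR or DESeq2) the adjusted p lay between 0.0505 and 0.41 with *jasper* RNAi and between 0.20 and 0.60 with *jil-1* RNAi. Neither call was reached, and the pairs share their controls. The hemocyte marker *Hml* was lower in all libraries of both RNAi groups, at 1282 to 1612 CPM with *jasper* RNAi and 945 to 1357 CPM with *jil-1* RNAi, against 1801 to 2263 CPM in Kc control libraries. The other 3 hemocyte markers overlapped, none was at 0, and the 4 summed to 1514 to 2041 CPM with *jasper* RNAi and 1198 to 1735 CPM with *jil-1* RNAi, against 2110.5 to 2506 CPM in control libraries. Their part in the values of *Kdm2* was not tested.

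**Figure D4:**
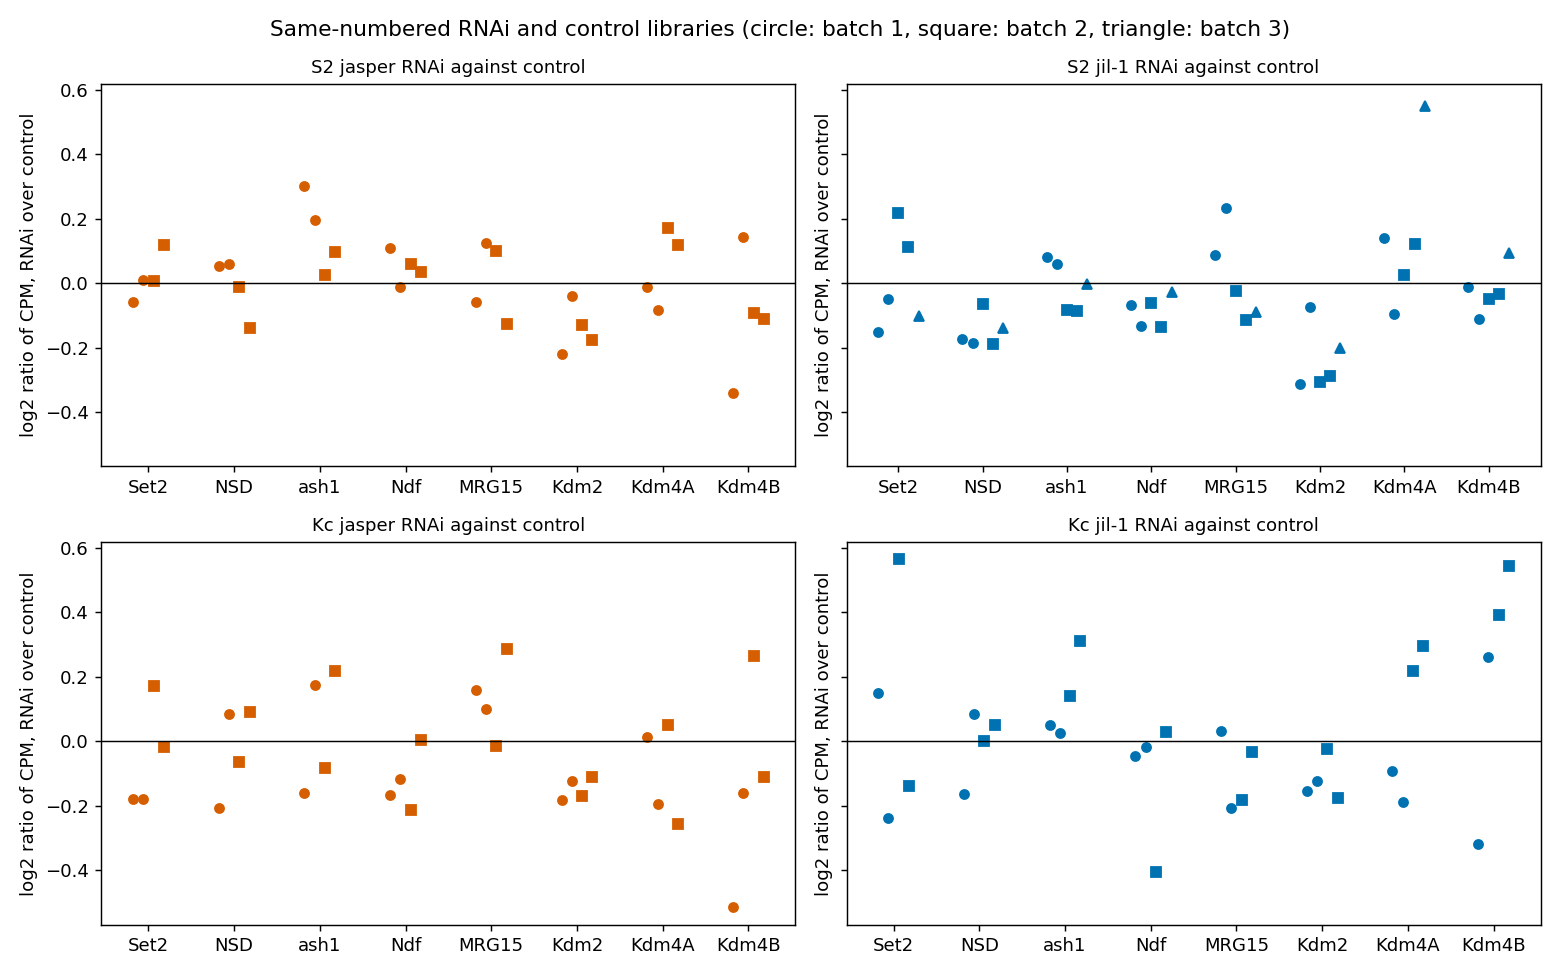
log2 ratio of CPM between each RNAi library and the control library of the same number, for each gene and comparison; marker shapes give the batch. Every point of *Kdm2* lies below 0 in the 4 panels, between -0.31 and -0.023, while *Set2* and *Kdm4B* scatter to both sides in Kc cells. Both RNAi groups of a line share its control libraries, and the numbers were not shown to pair libraries beyond batch. The share of all genes lower in every pair was not counted.

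The remaining genes had wider intervals in Kc than in S2 cells. Upon *jasper* RNAi, *Set2* had 75.4, 81.6, 77.1 and 107 CPM in Kc libraries 1 to 4, against 85.3, 92.5, 68.4 and 109 CPM in control libraries, and its log2 fold-change was -0.074 with an interval of -0.36 to 0.21. Library 4 was the highest in both groups. Upon *jil-1* RNAi its interval was -0.22 to 0.35. *ash1*, which rose in S2 cells upon *jasper* RNAi, had 66.6, 76.7, 68.5 and 85.6 CPM in Kc *jasper* RNAi libraries 1 to 4, against 74.5, 67.9, 72.6 and 73.6 CPM in Kc control libraries. It was higher in the libraries 2 and 4 that stood apart than in 1 and 3, so that its log2 fold-change of 0.031 (interval -0.15 to 0.21) became -0.098 without libraries 2 and 4. *NSD* had log2 fold-changes of -0.035 with *jasper* RNAi and -0.0090 with *jil-1* RNAi, with intervals of -0.18 to 0.11 and -0.15 to 0.14. *Ndf* had -0.13 (-0.30 to 0.035) and -0.11 (-0.28 to 0.065).

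*MRG15* (FBgn0027378, 3R:15276440-15278109, minus strand), the chromodomain reader shared by several complexes, separated both RNAi groups from each other in Kc cells. It had 44.1, 42.6, 41.8 and 43.4 CPM with *jasper* RNAi in libraries 1 to 4, against 40.4, 34.4, 37.3 and 34.8 CPM with *jil-1* RNAi. The groups did not overlap, which held in this direction for 3.22% of all genes. The log2 difference was 0.22 (SE 0.077), but with an adjusted p of 0.19 (edgeR) it was not past the threshold. Of the 8 genes 0 passed in this comparison by edgeR or DESeq2, beside 0.588% of all genes. *MRG15* was 1 of 2 with an unadjusted p below 0.05, a threshold at which all genes were not counted. The other was *Kdm4B* (FBgn0053182, 2R:13176553-13198337, minus strand), a demethylase gene related to *Kdm4A*, at -0.36 (adjusted p = 0.24), with 10.8, 11.9, 13.7 and 11.4 CPM with *jasper* RNAi in libraries 1 to 4 and 12.4, 15.9, 15.0 and 18.0 CPM with *jil-1* RNAi.

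Whether the lines responded differently was tested by the difference of the responses, S2 minus Kc. For none of the 8 genes did it pass the threshold with edgeR or DESeq2, beside 4.32% of 7909 genes for *jasper* RNAi and 7.93% for *jil-1* RNAi. At an unadjusted p below 0.05 there was 1 gene for *jasper* RNAi, *Ndf*, and 0 for *jil-1* RNAi. The share of all genes was not counted at this threshold. For *ash1* the *jasper* responses differed by 0.11 (95% interval -0.085 to 0.30, adjusted p = 0.60, edgeR) and for *Kdm2* by 0.0076 (-0.12 to 0.14, adjusted p = 0.98). For the *jil-1* responses the difference was -0.14 for *NSD* (-0.29 to 0.0099, adjusted p = 0.24) and -0.12 for *Kdm2* (-0.25 to 0.0053, adjusted p = 0.23). For *Ndf* the *jasper* responses differed by 0.18 (0.012 to 0.34, adjusted p = 0.23). The calls made in S2 cells alone are therefore not shown to be particular to that line.

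The largest difference among the 8 genes lay between the lines. Between S2 and Kc control cells 3 of the 8 genes were higher in S2 and 1 was lower, beside 68.0% of 8375 genes past the threshold, with 32.9% higher and 35.1% lower. The share of the 8 genes called, 4 of 8, thus did not exceed that of all genes, and 8 genes are too few to place it below. Batch numbers may not mean the same batch in both lines. Some of the hemocyte markers and of the markers of other cell types differed between the lines as well. The 4 hemocyte markers summed to 1622 to 5197 CPM in S2 control and 2110.5 to 2506 CPM in Kc control libraries, and none was at 0 in any library. Of these, *Pxn* was the main one in S2 and *Hml* the main one in Kc. The 3 markers of neurons, germline and muscle summed to 71.1 to 98.1 CPM in S2 control and 98.7 to 168.6 CPM in Kc control libraries. Among them the germline gene *bam* lay at 34.7 CPM or more in Kc control libraries. In S2 control libraries *bam* lay at 0.925 CPM or less and was at 0 in 1 library. Of the other 2, the muscle gene *Mef2* was higher in S2 control libraries, at 43.4 to 61.7 CPM against 30.7 to 39.8 CPM in Kc control libraries. The neuronal gene *elav* overlapped, at 26.9 to 36.4 CPM in S2 control and 20.6 to 33.3 CPM in Kc control libraries. Their part in the differences of the 8 genes was not tested.

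*NSD* differed most. It had 301, 296, 313, 332 and 306 CPM in S2 control libraries 4, 5, 8, 9 and 11, against 179, 153, 151 and 153 CPM in Kc control libraries 1 to 4. On the log2 scale this was 0.94 (SE 0.075, adjusted p = 3.6e-07, edgeR), a 1.92-fold higher level in S2 with a 95% interval of 1.71 to 2.15. The RNAi libraries showed the same gap, with at least 260.2 CPM in S2 and at most 163 CPM in Kc. Without any 1 library the log2 fold-change stayed between 0.91 and 1.00, and the call was kept.

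*Set2* was 1.25-fold higher in S2 control cells, at 0.32 on the log2 scale (SE 0.12, 95% interval 0.057 to 0.58, adjusted p = 0.033, edgeR). Kc control library 4, at 109 CPM, overlapped the S2 libraries, and the call was lost without Kc control library 1 or 3 (adjusted p = 0.073 and 0.093, edgeR) or S2 control library 4, 5 or 8 (adjusted p = 0.072, 0.070 and 0.052). *MRG15* was 1.20-fold higher in S2 (1.06 to 1.36, adjusted p = 0.014), with 49.3, 43.5, 48.1, 53.4 and 44.7 CPM in S2 control libraries, against 39.5, 39.7, 42.2 and 35.6 CPM in Kc control libraries 1 to 4. *Ndf* was lower in S2, at 0.864 times the Kc level (0.782 to 0.954, adjusted p = 0.013), and its lowest Kc control library, at 420 CPM, lay above its highest S2 control library, at 408 CPM. Both calls were kept without any 1 library. *ash1*, *Kdm2*, *Kdm4A* and *Kdm4B* did not pass, with log2 fold-changes of 0.087 (interval -0.047 to 0.22), 0.092 (-0.059 to 0.24), -0.22 (-0.52 to 0.073) and -0.045 (-0.37 to 0.28). The libraries of *ash1* did not overlap all the same, as for *NSD*, *MRG15* and *Ndf*. This made 3 of 8 wholly above and 1 of 8 wholly below, beside 28.6% and 29.5% of all genes.

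A list of 33 further genes of the pathway was read beside the 8. It held 9 factors that couple Set2 to RNA polymerase II, 16 subunits of the Sin3 and Tip60 complexes that hold MRG15, 6 other readers or partners and the 2 genes of the H3.3 substrate. Upon *jasper* RNAi in S2 cells 4 rose and 2 fell. *Gas41*, a YEATS-domain subunit of the Tip60 complex, rose by 0.34 on the log2 scale (adjusted p = 0.030, edgeR), *Brd8* of the same complex by 0.24 (adjusted p = 0.013) and *Cdk12*, a kinase of the polymerase tail, by 0.19 (adjusted p = 0.037). *Ing3*, a PHD-finger subunit, fell by 0.51 (adjusted p = 0.0045) and *mof*, the H4K16 acetyltransferase of dosage compensation, fell by 0.18 (adjusted p = 0.026). Both genes that fell are X-linked, 2 of 7 such genes on the list, beside 21.7% of all X-linked genes that fell. Of the 26 others 4 rose and 0 fell, beside 8.45% of all genes that rose and 11.9% that fell. Shares for genes off the X alone are not given here. The median log2 fold-change of the list was 0.077, against 0.011 over all genes.

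Upon *jil-1* RNAi in S2 cells 4 genes of the list rose and 4 fell. *Gas41* (0.29, adjusted p = 0.045, edgeR), *Brd8* (0.22, adjusted p = 0.013) and *Sce*, the RING subunit that acts with Kdm2 in flies (0.21, adjusted p = 0.022), were higher. *Nipped-A*, the scaffold of acetyltransferase complexes, fell by 0.32 (adjusted p = 0.0055), and *His3.3B* and *His3.3A*, which both encode H3.3, fell by 0.21 and 0.14 (adjusted p = 0.0083 and 0.028). Here 2 of 7 X-linked genes and 2 of 26 others fell, beside 20.8% of all X-linked genes, and 4 of the others rose. Over all genes 9.12% rose and 12.3% fell, and shares for genes off the X alone are not given here. The median of the list was -0.016, against 0.0034 over all genes. Between the S2 groups *His3.3A* was higher by 0.27 with *jasper* than with *jil-1* RNAi (adjusted p = 0.0020), and *Ing3* was lower by 0.40 (adjusted p = 0.039, edgeR). In Kc cells 1 gene of 33 passed in either comparison, beside 2.79% of all genes that fell with *jasper* RNAi and 2.18% with *jil-1* RNAi. *Nipped-A* fell by 0.38 upon *jasper* RNAi (adjusted p = 0.013), and *rept*, an ATPase of the Tip60 complex, fell by 0.25 upon *jil-1* RNAi (adjusted p = 0.041). Shares of 8 of 33 upon *jil-1* RNAi and 6 of 33 upon *jasper* RNAi in S2 cells were close to the 21.4% and 20.3% of all genes.

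Lastly, the genes most alike in pattern were looked up for each of the 8, by Pearson's r of log2 CPM over the 26 libraries after the mean of each line and batch was removed, among 7909 genes. These r values are descriptions over libraries that share batches and depth. *Kdm2* had the closest neighbours, *CG32115* (r = 0.87) and lncRNA:CR46064 (r = 0.86). *Ndf* was most like *Nop60B* (r = 0.84), *Set2* most like *Taf1* (r = 0.84), *ash1* most like *Gprk2* (r = 0.82) and *NSD* most like *glo* (r = 0.81). *Kdm4A*, *MRG15* and *Kdm4B*, which had the fewest reads, reached 0.72 with *Mst85C*, 0.71 with *RpL30* and 0.70 with lncRNA:CR43943. Among the 28 pairs of the 8 genes themselves r lay between -0.46 and 0.55 and was highest for *NSD* and *Kdm2*.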

How the data were processed

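RNA of S2 and Kc cells was depleted of ribosomal RNA and made into strand-specific libraries. The authors aligned reads to the release 6 genome (BDGP6) with STAR 2.6.0 and deposited raw counts per gene for each library, from uniquely aligned reads. Of the deposited counts those on the gene strand were used. RSEM 1.3.0 is also named in the submitters' notes, and its values were not used. Reads assigned to no gene or to several made up 8.94% to 15.6% and were left out of library sizes.

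Genes with more than 0 reads in every library of a fit were tested with edgeR 4.0.16 in R 4.3.3 (TMM scaling, quasi-likelihood F-test, batch as a block), in one fit per line, and p-values were adjusted by Benjamini-Hochberg over all genes tested. The 9 control libraries were fitted without batch, and the difference of responses over 26 libraries with batch nested in line. Residual degrees of freedom were 9, 8, 7 and 17 for the S2, Kc, control and joint fits. Scripts were tested on simulated counts. Standard errors are the log2 fold-change over the square root of F. The main fits did not pair libraries by replicate number. The numbers were used only for the same-numbered ratios and for a replicate block among the alternatives. Deviations of same-numbered libraries from their group means correlated at 0.17 to 0.65, but the batch was not removed from these deviations. Libraries of the same batch but another number correlated at 0.14 to 0.53, and in no pair of groups did every library correlate best with its own number. A pairing beyond the shared batch was therefore not shown.

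Gene positions and exon lengths come from the Ensembl release 115 annotation, which holds 17215 of the 17489 genes. All 8 genes were named, with the largest 3 rises and 3 falls of the pathway list per RNAi comparison and the closest genes by r. The 8 genes, the lists and the tests were chosen with earlier results of these data known. Of the planned pathway list, *Iws1* was not matched. Alternatives were DESeq2 1.42.0, other scaling and filters, counts without strand, other blocks, 2 groups only, doubtful libraries left out and each library left out.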

Additional observations from a re-analysis of the deposited data

Results flagged for a closer look

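Over 48 groups of libraries (8 genes in 6 groups) 1 library stood far from the rest of its group. *NSD* in Kc control library 1 had 179.2 CPM, against 153, 151 and 153 CPM in Kc control libraries 2, 3 and 4, with 90.9% of the range of the group lying between it and the next library. By chance about 1 in 20 groups would be picked out in this way. Without it, the log2 fold-change of *NSD* between S2 and Kc control cells was within the 0.91 to 1.00 given above.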

How the results depend on the processing

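The 4 of 8 genes called between the lines were kept in all 6 other settings, and 0 of 8 in Kc cells and for the differences of responses in every setting. Counts in S2 cells moved. Upon *jasper* RNAi, 2 genes became 1 with DESeq2, with scaling from autosomal genes or with only the 2 groups in the fit, and 0 with no filter on low counts or no batch term. Upon *jil-1* RNAi, 2 became 1 with no filter or no batch term, and 3 with DESeq2 or autosomal scaling. For *jasper* against *jil-1* RNAi, 2 became 1 with the replicate block, counts without strand or S2 batch 3 left out, and 0 with scaling from autosomal genes, filterByExpr, no filter, no batch term or only the 2 groups. Leaving out 1 library gave 0 to 2, 1 to 2 and 0 to 1 genes in these 3 comparisons, and 3 to 4 between the lines. The replicate block changed no other call. No paired analysis was possible between the lines, since nothing in the labels links an S2 control library to a Kc control library. The cause of these changes was not tested.

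Among the estimates checked, signs changed only for log2 fold-changes that were not called. For *jasper* against *jil-1* RNAi, only genes with an unadjusted p below 0.05 (edgeR) were checked. For the differences of responses, genes called with that RNAi in a line were checked as well as those. In S2 cells with *jasper* RNAi, *Set2* was at -0.0032 with DESeq2, -0.0033 with RLE scaling, -0.023 with autosomal scaling, -0.0048 with filterByExpr and -0.0047 with no filter. *MRG15* there was at 0.011 without strand, 0.030 with no batch term, 0.00033 with the replicate block, 0.0081 with only the 2 groups and 0.0079 without S2 batch 3. With *jil-1* RNAi, *Kdm4B* was at -0.0034 with DESeq2, -0.0011 with RLE scaling, -0.014 with autosomal scaling, -0.0035 without strand, -0.021 with no batch term, -0.020 with the replicate block and -0.018 without S2 batch 3. *Set2* and *MRG15* there were at -0.012 and -0.010 with autosomal scaling, and *MRG15* at -0.011 without strand. In Kc cells with *jil-1* RNAi, *NSD* was at 0.0021 with autosomal scaling and 0.0028 with filterByExpr, and with *jasper* RNAi *ash1* was at -0.098 without libraries 2 and 4. *Kdm4B* between the lines was at 0.028 with batch number as a shared block. The difference of the *jasper* responses of *Kdm2* was at -0.0059 with DESeq2 and with RLE scaling and at -0.0073 with no batch term.

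Without 1 library, S2 *jasper* RNAi values ranged between -0.045 and 0.023 for *Set2*, -0.031 and 0.014 for *NSD* and -0.040 and 0.016 for *MRG15*. S2 *jil-1* RNAi values ranged between -0.059 and 0.052 for *Set2*, -0.036 and 0.022 for *ash1*, -0.024 and 0.036 for *MRG15* and -0.058 and 0.066 for *Kdm4B*. In Kc cells the ranges were -0.21 to 0.017 for *Set2*, -0.071 to 0.027 for *NSD* and -0.022 to 0.087 for *ash1* with *jasper* RNAi, and -0.070 to 0.16 for *Set2*, -0.047 to 0.047 for *NSD* and -0.0079 to 0.12 for *Kdm4A* with *jil-1* RNAi. Between the lines *Kdm4B* ranged between -0.13 and 0.040, and the difference of the *jasper* responses of *Kdm2* between -0.016 and 0.029. *Kdm4A* and *Kdm4B* had the fewest reads, with 48 to 556 per library.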
